A study of Caenorhabditis elegans with 2 samples.

Results

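NHR-41 is a nuclear receptor of Caenorhabditis elegans related to the vertebrate receptors TR2 and TR4. Its binding was examined here at 7 genes that control moulting and larval timing, myrf-1, myrf-2, pan-1, grh-1, blmp-1, lin-42 and lin-29, out of 19973 protein-coding genes. The genes were chosen by name for their roles, with earlier results of these data known, so the counts below describe these genes and are no independent evidence. For each one, every peak was taken whose summit lay between 5 kb upstream of the first transcript start and the end of the gene, and this stretch is called the locus window. All samples came from 1 group: whole L4 larvae of strain RW12221, in which nhr-41 carries a TY1::EGFP::3xFLAG tag inserted by CRISPR, harvested at 48.5 h after synchronisation by bleaching and L1 starvation. An antibody against GFP was used for chromatin immunoprecipitation and sequencing (ChIP-seq), with 2 biological replicates. An untagged or untreated group was not analysed here, so the values below describe peaks within the authors' lists, with no test between groups. Whole animals were used, so the cells in which a site was bound cannot be told apart.

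C. elegans larvae shed the cuticle at the end of each stage, and waves of gene expression recur with each moult. MYRF-1 and MYRF-2 are membrane-bound transcription factors that are cleaved to release a DNA-binding part that enters the nucleus. They promote transcription of the microRNA lin-4 and the remodelling of synapses, and loss of myrf-1 arrests larvae at a moult. PAN-1, a transmembrane protein with leucine-rich repeats, binds both MYRF proteins and is needed to bring them to the cell surface. GRH-1 (a Grainyhead factor) and BLMP-1 (the homologue of the zinc finger protein Blimp-1) act in the same recurring programme, LIN-42 is the homologue of the circadian protein Period, and LIN-29 is a zinc finger factor that starts the larval-to-adult switch.

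The sequences at the summits are shown because 3 of the member peaks in the conservative list of both replicates, and 3 more in a less strict list, the other thresholded one, lay at only 4 of the 7 genes. Each run is the genome sequence (ce11, RefSeq assembly WBcel235) from 75 bp before to 75 bp after the summit, 151 bp in all, read on the strand of the gene. GTGCCAG in capitals is the reverse complement of CTGGCAC, the core of the site bound by vertebrate MYRF. TGACCT in capitals is the reverse complement of AGGTCA, the core element of many nuclear receptor sites. TGCGTCTC and its reverse complement GAGACGCA are capitalised as a word that member windows shared, chosen after the sequences were seen.
myrf-1, chrII:10502773-10502923, minus strand: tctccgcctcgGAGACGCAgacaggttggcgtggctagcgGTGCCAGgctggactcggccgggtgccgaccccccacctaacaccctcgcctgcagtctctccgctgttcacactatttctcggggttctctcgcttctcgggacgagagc
myrf-2, chrX:10188538-10188688, minus strand: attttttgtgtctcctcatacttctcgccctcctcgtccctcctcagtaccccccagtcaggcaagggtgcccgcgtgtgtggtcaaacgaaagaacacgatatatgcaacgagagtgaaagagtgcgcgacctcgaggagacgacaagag
pan-1, chrIII:4560556-4560706, plus strand: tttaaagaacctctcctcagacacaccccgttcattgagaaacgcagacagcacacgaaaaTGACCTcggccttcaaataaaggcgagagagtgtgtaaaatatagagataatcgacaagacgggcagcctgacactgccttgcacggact
lin-42, the first site, chrII:1247036-1247186, minus strand: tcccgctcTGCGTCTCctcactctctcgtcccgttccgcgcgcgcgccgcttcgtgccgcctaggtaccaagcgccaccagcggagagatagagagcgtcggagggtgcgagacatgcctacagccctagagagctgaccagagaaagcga
lin-42, the third site, chrII:1237957-1238107, minus strand: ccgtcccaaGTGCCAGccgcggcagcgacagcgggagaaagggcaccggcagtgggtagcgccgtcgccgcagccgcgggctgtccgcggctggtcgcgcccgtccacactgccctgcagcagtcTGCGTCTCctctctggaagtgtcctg

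Letters were then counted in 6 windows, the 5 above and the second lin-42 site, which lies wholly in coding sequence. Both strands were searched. CTGGCAC stood in 2 of the 6 member windows, at myrf-1 and at the third lin-42 site, against 1.68% of all conservative summit windows and 0.626% of promoter windows of the same length. It began 35 bp before the summit at myrf-1 and 66 bp before it at lin-42. Both windows were rich in GC (65.6% and 72.2%), and the background shares were not matched for GC content. The word TGCGTCTC stood in 3 of the 6 windows, those of myrf-1 and of the first and of the third lin-42 site, against 6.74% of conservative summit windows, 7.57% of windows of the other thresholded list and 1.85% of promoter windows. It was picked from these same member windows, so its count there is a description only. The median signal of conservative peaks was 84.0 with this word and 82.6 without it. AGGTCA stood in the pan-1 window, 14 bp before the summit, and in 10.2% of conservative and 4.55% of promoter windows. Of the 6 windows, those of myrf-2 and of the second and the third lin-42 site come from the other thresholded list. The longer AAGGTCA was in 0 of the 6 windows and in 4.12% of conservative and 1.81% of promoter windows. TGATAA, a form of the GATA factor element, was in 0 member windows (22.7% of conservative, 18% of promoter windows). Other forms of it were not counted. Also in 0 member windows were the Grainyhead element AACCGGTT (0.0935% and 0.250%), the Blimp-1 element TTTCACTTT (1.12% and 1.58%) and GTTCNANNC, the core of the B box of tRNA genes (25.4% and 3.79%). AAGGTCA contains AGGTCA, the words found at the member summits do not overlap, and a match of letters is a description of the window.

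The member windows differed in base composition. The GC content was 65.6% at myrf-1, 64.9% at the first lin-42 site and 72.2% at the third, and 99.3%, 99.0% and 99.9% of the conservative summit windows had a lower value. Among the member windows, CTGGCAC and TGCGTCTC stood only in these, and the part of GC content in their counts was not tested. At myrf-2, pan-1 and the second lin-42 site it was 54.3%, 47.7% and 52.3%, against a median of 47.0% over conservative windows. Across all conservative peaks the median signal in 4 groups of rising GC content was 75.6, 81.1, 87.6 and 86.7. The part of GC content in the member signals was not tested.

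Of the 7 genes, 3 had a conservative summit in the locus window (42.9%), namely myrf-1, pan-1 and lin-42, with 1 peak each. The background was 7.84% of all protein-coding genes. The member windows were long, from 8.546 to 24.124 kb, and among the 4948 genes with windows in that range the share was 11.3%. A summit in a promoter, taken as the 1000 bp before and the 200 bp after any transcript start, was present at 1 of the 7, myrf-1, against a background of 2.68%. With so few genes these shares are given as counts. In the thresholded list of replicate 1 alone, 2 of the 7 genes had a summit, myrf-1 and lin-42, against 2.83% of genes. In that of replicate 2 alone, 3 did, with pan-1 added, against 5.36%. No conservative summit lay in the windows of myrf-2, grh-1, blmp-1 or lin-29. In the authors' other thresholded list, made from both replicates with 1136 peaks, 6 peaks stood in the windows, at myrf-1, pan-1, myrf-2 and, 3 times, lin-42, so that 4 of the 7 genes had a summit, against 8.26% of all genes. By that list 2 of the 7 had a promoter summit, myrf-1 and myrf-2, against 2.8%. The myrf-2 summit counts through an internal start, 143 bp away, of the 10 starts of the gene. More starts give more promoter sequence, and the background was not matched for their number. Under a score of 540 or more in the full ranked list of 48276 peaks, 4 of the 7 genes had a summit, against 12.8% of genes.

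**Figure D1:**
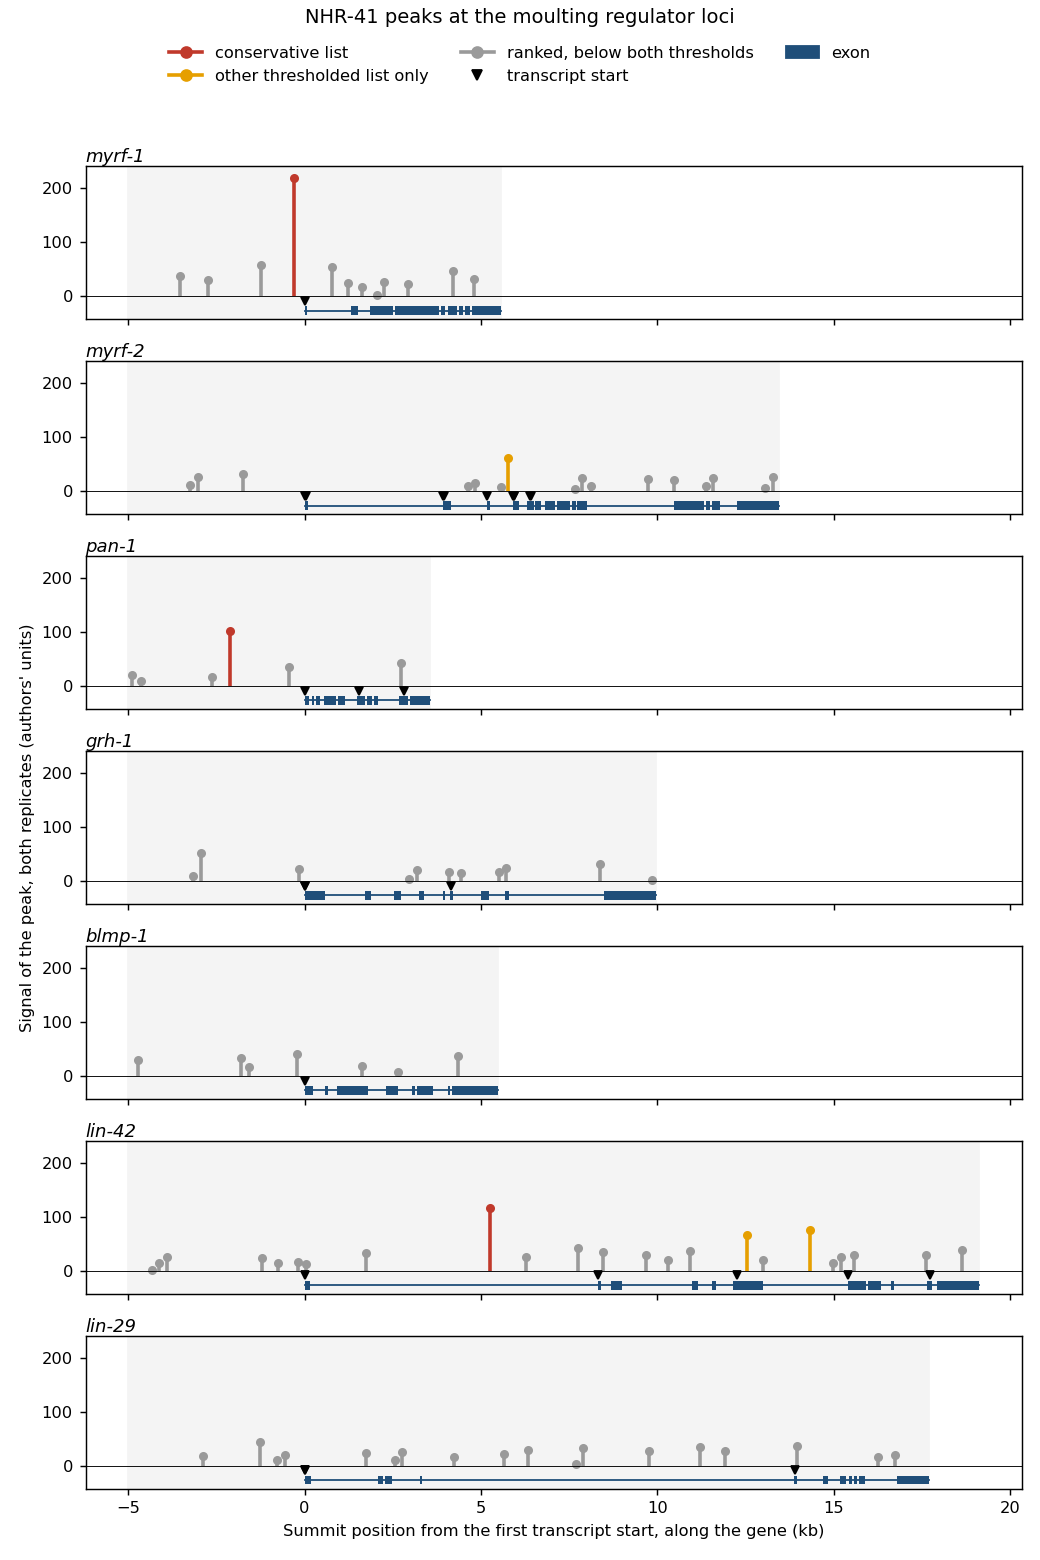
NHR-41 peaks in the locus windows of the 7 genes: the x axis gives the summit's distance in kb from the first transcript start along the gene, and the y axis the authors' peak signal in the ranked list of both replicates. Red marks the conservative list, orange the other thresholded list only, and grey the peaks under both thresholds. The myrf-1 peak at 218 is the tallest, and grh-1, blmp-1 and lin-29 hold grey peaks only.

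The MYRF pair came out unequal. myrf-1 (WBGene00004134, chrII:10496987-10502541, minus strand) carried the strongest member peak, chrII:10502706-10502989, with its summit 307 bp upstream of its only transcript start. The summit lay outside protein-coding genes and inside the annotated non-coding RNA gene F59B10.7. The signal was 91.8 in replicate 1 and 120.9 in replicate 2, a mean of 106 ± 20.5 (SD, n = 2), against a median replicate mean of 41.7 over the conservative peaks. Both replicates were high there, and the peak stood at rank 21 of 38647 in the ranked list of replicate 1 and at rank 18 of 35958 in that of replicate 2. From both replicates together the signal was 218, rank 15 of 1069 conservative peaks. The score was the highest possible, 1000, as at 781 of the 1069 conservative peaks. The replicates placed the summit 6 bp above and 25 bp below the joint coordinate. The peak also passed the threshold in each replicate's own list, at rank 14 of 347 and rank 15 of 676.

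A pair of weaker peaks flanked the myrf-1 promoter peak and stayed under the threshold. At chrII:10503619-10503902, 1220 bp upstream of the start, the signal was 24.3 in replicate 1 and 35.1 in replicate 2, with a score of 687. In an intron, at chrII:10501632-10501915, the signal was 29.9 in replicate 1 and 24.6 in replicate 2, with a score of 569. The joint signals of these peaks were 57.3 and 54.4, next to 218 at the promoter. In all, 12 ranked peaks lay in the myrf-1 window, 1.14 per kb, and 95.2% of protein-coding genes had fewer per kb.

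myrf-2 (WBGene00008999, chrX:10180940-10194377, minus strand), the paralogue with 11 annotated transcripts from 10 starts, had its strongest peak inside the gene. The peak at chrX:10188471-10188754 had its summit in an intron, 5764 bp after the first start and 143 bp before the start of transcript F21A10.2a.2. The signal was 24.8 in replicate 1 and 32.2 in replicate 2 (28.5 ± 5.21, SD, n = 2), and neither replicate's own thresholded list held it. The other thresholded list gave it a score of 844 at rank 1009 of 1136, while the ranked list gave 665, under the lowest conservative score of 830. An adjacent ranked peak with a joint signal of 8.55 was matched to the same pair of replicate peaks. The strongest myrf-1 peak exceeded that of myrf-2 by 3.70-fold in replicate 1 and 3.76-fold in replicate 2. Upstream of the first myrf-2 start the best score was 123, at 1750 bp, and that summit was nearer to the start of nucb-1.

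The gene of the MYRF partner PAN-1, pan-1 (WBGene00003915, chrIII:4562738-4566283, plus strand), carried a conservative peak at chrIII:4560489-4560772. Its summit lay in intergenic sequence, 2107 bp before the first pan-1 start and 193 bp past the 3 prime end of the neighbouring gene imph-1. The signal was 36.9 in replicate 1 and 67.2 in replicate 2 (52.0 ± 21.4, SD, n = 2). Replicate 2 was 1.82 times replicate 1, against a median ratio of the higher to the lower replicate of 1.30 over conservative peaks. The peak passed the threshold in the list of replicate 2, at rank 146 of 676, and not in that of replicate 1, where its score was 642. The joint signal was 102, rank 252 of 1069. Closer to the gene, a peak 430 bp before the first start had a joint signal of 35.3, and one in a coding exon, 84 bp before the start of M88.6c.1, had a joint signal of 43.1.

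lin-42 (WBGene00018572, chrII:1233236-1252359, minus strand) spans several promoters, with 7 transcripts from 5 starts, and held 3 of the 6 thresholded member peaks, all inside the gene. The first site, chrII:1246969-1247252, was the conservative one. Its summit lay in an intron, 3076 bp before the shared start of F47F6.1b.1 and F47F6.1c.1 and inside the non-coding RNA gene F47F6.15. The signal was 51.0 in replicate 1 and 58.2 in replicate 2 (54.6 ± 5.08, SD, n = 2), and both replicates' own lists held the peak, at rank 175 of 347 and rank 273 of 676. The joint signal was 117, rank 148 of 1069. The myrf-1 promoter peak exceeded it by 1.80-fold in replicate 1 and 2.08-fold in replicate 2.

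The other lin-42 sites stood in the less strict list only. The second, chrII:1239684-1239967, lay in a coding exon 275 bp after the start of F47F6.1e.1. Its signal was 32.3 in replicate 1 and 29.9 in replicate 2 (31.1 ± 1.72, SD, n = 2), with a ranked score of 816, just under the 830 of the lowest conservative peak. The third, chrII:1237890-1238173, lay in an intron 1063 bp before the start of F47F6.1a.1. Its signal was 22.4 in replicate 1 and 52.6 in replicate 2 (37.5 ± 21.4, SD, n = 2), with a ranked score of 708 and 1000 in the less strict list. Its own score was 296 in replicate 1 and 1000 in replicate 2, whose thresholded list held it at rank 404 of 676. The replicates thus differed 2.35-fold at the third site and 1.08-fold at the second. No start of another protein-coding gene lay nearer to any of the 3 summits than a start of lin-42.

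**Figure D2:**
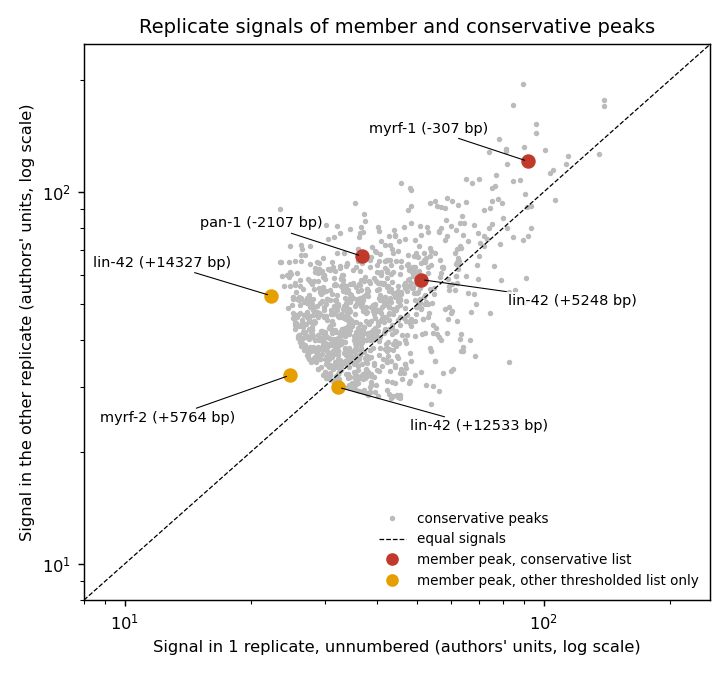
Signal in the replicates for the 1069 conservative peaks (grey) and the 6 thresholded member peaks (red, conservative; orange, other list only), in the authors' units on log axes, with the distance from the first transcript start in brackets. For the member peaks the x axis is replicate 1; for the grey points it is the first replicate column of the joint ranked list, whose records were identical to ones of replicate 1 at 28441 of the 48276 ranked peaks and of replicate 2 at 0. myrf-1 lies among the highest points, and the third lin-42 site and pan-1 lie farthest above the line of equal signals among the member peaks.

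The remaining transcription factors had weaker peaks that passed no threshold. At grh-1 (WBGene00001707, chrI:1258201-1268155, minus strand) the best score was 390, at chrI:1270959-1271242, 2946 bp upstream of grh-1 and nearer to the start of Y48G8AR.8, which lies 415 bp away. The signal there was 29.4 in replicate 1 and 21.3 in replicate 2. A peak 150 bp upstream of grh-1 itself had a score of 63 and a joint signal of 23.1. At blmp-1 (WBGene00003847, chrI:10409302-10414773, plus strand) the best score was 182, at chrI:10408951-10409234, 209 bp upstream of the start, with signals of 15.5 and 28.4 in the first and second replicate columns of the joint ranked list, which carry no replicate number. Over the 48276 ranked peaks, the first column's record was identical to one in the own list of replicate 1 at 28441 peaks and of replicate 2 at 0. The second column's was identical to one of replicate 2 at 29471 peaks and of replicate 1 at 0. For this blmp-1 peak neither replicate's own ranked list held the record. At lin-29 (WBGene00003015, chrII:11917642-11935343, minus strand) the best score was 171, in an intron 7894 bp after the first start, and the highest joint signal was 44.5, at 1272 bp upstream, with a score of 59. A peak 34 bp after the lin-29 start W03C9.4c.1 had a joint signal of 36.5 and a score of 143.

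Peaks under the threshold were common at these loci, as at most genes. The 7 windows together held 93 ranked peaks, and 87.7% of all protein-coding genes had at least 1. Among the 93, 34 shared their pair of replicate peaks with another ranked peak, so the counts and densities are not of separate sites. Of the 93, 47 had the lowest score of the list, 26, and the median score was 26, against 57 over the whole ranked list. The density was 1.14 per kb at myrf-1, 0.953 at lin-42, 0.868 at myrf-2, 0.793 at lin-29, 0.736 at grh-1, 0.702 at pan-1 and 0.668 at blmp-1, all above the median gene at 0.465. The best score was 1000 at myrf-1, pan-1 and lin-42 and 665 at myrf-2, with 94.1% and 89.6% of genes lower. It was lower at 82.7%, 66.6% and 64.8% of genes than at grh-1, blmp-1 and lin-29. Longer windows hold more summits and can raise the best score.

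When the strongest ranked peak in each replicate's own list was taken per window, myrf-1 came first in both replicates, at 91.8 in replicate 1 and 120.9 in replicate 2. lin-42 followed with 51.0 and 58.2, and pan-1 with 36.9 and 67.2. These neighbours in the order overlapped over the replicates, whereas the lower myrf-1 value lay above both lin-42 values. lin-29 had 20.6 in replicate 1 and 37.8 in replicate 2, and its upper value overlapped the lower one of pan-1. The remaining genes overlapped one another, with 24.8 and 32.2 at myrf-2, 29.4 and 24.8 at grh-1, and 23.1 and 27.3 at blmp-1. Replicate 2 gave the higher value at 6 of the 7 genes, all but grh-1. The median signal over all peaks of a replicate's own thresholded list was also higher in replicate 2, at 55.3 against 51.0 in replicate 1. These lists hold 676 and 347 peaks, so the medians are not over the same peaks. At grh-1 the strongest peaks of the replicates lay at different sites. That of replicate 1, 29.4, stood 2946 bp upstream of the first start, where replicate 2 had 21.3. That of replicate 2, 24.8, was matched 8370 bp after the first start to a signal of 9.02. At blmp-1 the 23.1 of replicate 1 was matched to 16.8, and at lin-29 the 37.8 of replicate 2 to 12.2. So at grh-1, blmp-1 and lin-29 the replicate values are not of matched peaks.

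**Figure D3:**
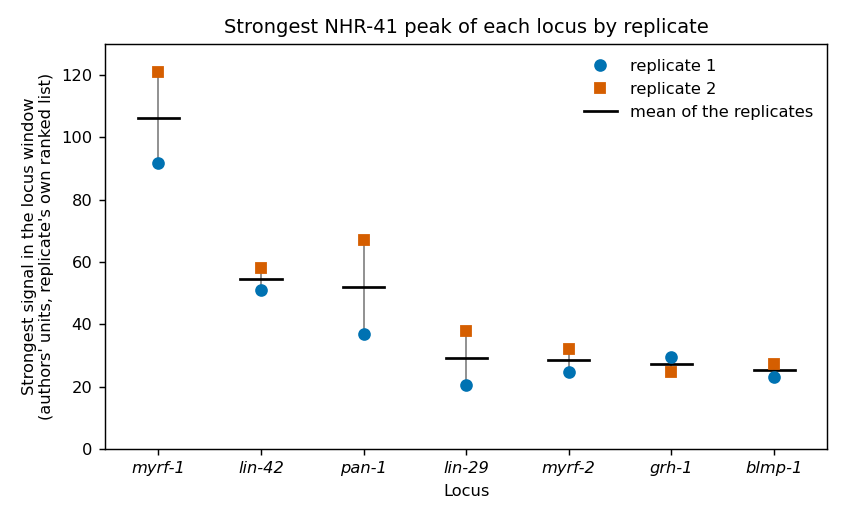
Strongest NHR-41 peak signal in the locus window of each gene, in the authors' units, from each replicate's own ranked list (circles, replicate 1; squares, replicate 2; bar, mean of the 2). myrf-1 lies above all others in both replicates, and lin-29, myrf-2, grh-1 and blmp-1 have means between 25.2 and 29.2. At grh-1, blmp-1 and lin-29 the replicate values come from peaks that were not matched to each other.

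The 3 protein-coding genes whose strongest conservative promoter peak had the joint signal nearest to that of myrf-1 were rpl-35, which encodes a ribosomal protein, and F44E5.4 with F44E5.5, a pair of heat shock protein genes that share 1 peak. The rpl-35 peak had a signal of 220.4 and a replicate mean of 108 ± 6.25 (SD, n = 2). The shared F44E5.4 and F44E5.5 peak had a signal of 219.5 and a replicate mean of 110 ± 6.64 (SD, n = 2). At myrf-1 the replicate mean was 106 ± 20.5 (SD, n = 2). The genes were picked by joint signal, so the likeness in signal follows from the choice.

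Other genes of the larval timing and moulting pathways were counted in the same way, again with a background of 7.84% of protein-coding genes. Their lists were also written with earlier results of these data known, so these counts are no independent evidence. Of 12 further heterochronic genes, which set the order of larval stages, 5 had a conservative summit (41.7%). The list holds 2 microRNA genes, neither among the 5, and its median window was 10.96 kb, against 7.03 kb over all protein-coding genes. Genes with windows in the range of the members', 8.546 to 24.124 kb, had the share of 11.3% given above. The windows of the heterochronic list ran from 5.094 to 35.968 kb, so that share is not matched to them in length. The 5 were kin-20 (a casein kinase 1 family gene, signal 96.6), ain-1 (a component of the microRNA silencing complex, 92.2), lin-41 (an RNA-binding repressor, 78.5), lin-14 (a transcription factor of early larval fates, 74.7) and mab-10 (57.6), whose product works together with LIN-29. kin-20 and lin-14 each had a second conservative peak, matched to the same pair of replicate peaks. The mab-10 and ain-1 summits lay 339 and 997 bp upstream of a start, inside the promoter window. In the thresholded list of replicate 1, 0 of the 12 windows held a peak, against 2.83% of protein-coding genes. In that of replicate 2, 3 did, those of let-7, kin-20 and ain-1, against 5.36%. The microRNA gene lin-4, a target of the MYRF proteins, had a best score of 605, and let-7 had 789.

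Of 5 other moult transcription factors, nhr-23, nhr-25, nhr-85, bed-3 and elt-3, 0 had a conservative summit. Their best scores ran from 158 at bed-3 to 578 at nhr-85. Of 20 moult effectors, which include proteases, proteins of the cuticle and membrane, and kinases, 2 had one (10%). The nekl-3 peak, near a gene for a NIMA-related kinase, had a signal of 79.2, but the start of F17E5.2 was nearer to it. The acn-1 peak, with a signal of 31.0, lay in a coding exon of vit-2, a vitellogenin gene. None of the 6 thresholded member peaks lay within 500 bp of a tRNA, snRNA or snoRNA gene, and without peaks near such genes the background share was 5.8%.

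**Figure D4:**
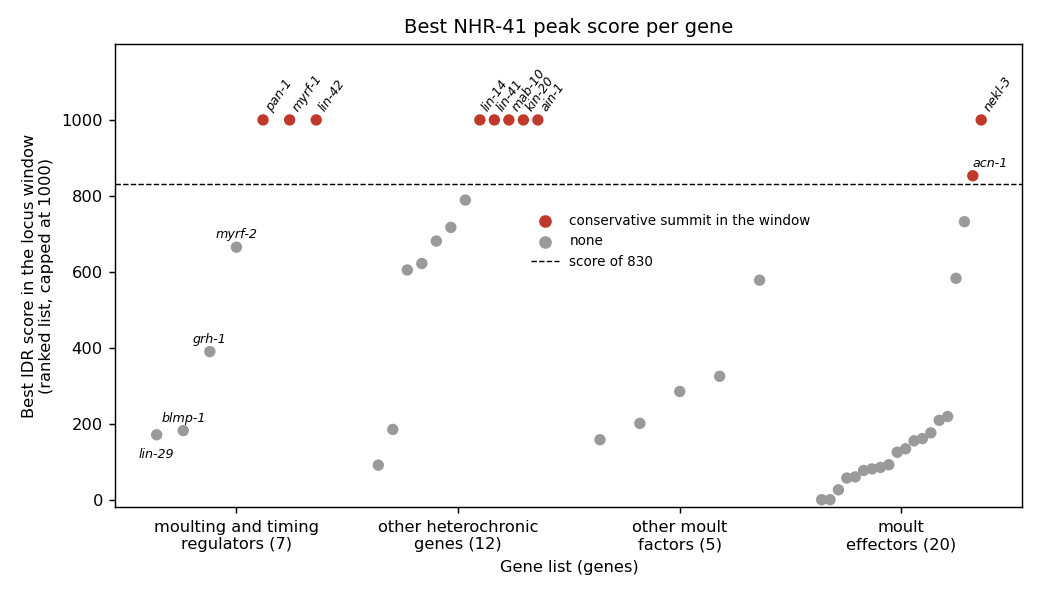
Best score of a ranked NHR-41 peak in each gene's locus window (y axis, IDR score capped at 1000) for the 7 genes and for 3 other lists, sorted by score within each list. Red points have a conservative summit and the dashed line marks the lowest conservative score of 830: 3 of 7 regulators, 5 of 12 heterochronic genes, 0 of 5 moult factors and 2 of 20 moult effectors are red.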

How the data were processed

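Peak lists on ce11 were deposited by the authors, with an irreproducible discovery rate (IDR) per peak, a measure of whether its rank recurs from one peak set to another. The score is the authors' deposited IDR score capped at 1000. The signal is the value deposited by the authors for each peak, in a unit they do not state. The lowest −log10 IDR that the authors deposited in the conservative list was 2.000107, at a score of 830. Aligner, caller and versions were not given in the sources used here, and read depth was unknown. The labels give the samples as biological replicates, and no p-value was computed.

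The conservative list (1069 peaks) was the main one. Others were the second thresholded list (1136), the ranked list (48276) and each replicate's thresholded (347 and 676) and ranked list (38647 and 35958). A summit is the position the authors deposited for a peak. Signals with a replicate number come from that replicate's own ranked list. The 2 columns of replicate signals in the joint ranked list carry no number and are marked so (the report gives how often their records recur in each replicate's list), and 6 such columns of other peak sets were not used. Ranks are within 1 list. Gene models were Ensembl release 115, and lin-4 and let-7 were placed by RefSeq coordinates. Python 3.11.15, pandas 2.3.3 and numpy 2.4.6 were used, and the counting steps were tested on simulated data.

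The members, gene lists and motifs were chosen with earlier results of these data known. Named genes were all 7 members, up to 6 genes with a conservative summit of each list, and the 3 genes nearest to myrf-1 in promoter signal. Scores and values of other list genes (lin-4, let-7, bed-3, nhr-85) were named after they were seen. Alternatives were the second list, each replicate alone, a score of 1000, windows of 2 and 10 kb, promoters of 500 and 2000 bp, overlap by 1 bp, and motif windows of 50 and 100 bp to each side.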

Additional observations from a re-analysis of the deposited data

How the results depend on the processing

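In the second thresholded list 6 peaks stood in the 7 windows, 2 members had a promoter summit and 1 moult effector had a summit. With each replicate's list alone, without replicate 1 and without replicate 2, the background share ran from 2.83% to 5.36%, heterochronic genes with a summit from 0 to 3, and moult effectors from 0 to 1. At a score of 1000 only, 1 moult effector had a summit, and with 2 kb upstream 0 did. The 2 kb window also left 2 of the 7 members, as the pan-1 summit lies farther out. The background share was 4.98% with 2 kb and 11.9% with 10 kb upstream, and TTTCACTTT stood in 0.561% of windows reaching 50 bp. The causes were not tested. The other 61 values of counts and shares moved by no more than 1.5 times. Without replicate 1 the myrf-1 signal was 121, and without replicate 2 it was 91.8. The joint list gave 218, but the unit is not stated, so a joint signal cannot be compared with that of a replicate. The SDs, ratios and overlaps between replicates take the signals of the replicates' own lists as being on the same scale, which was not tested. The lin-42 values were 58.2 and 51.0, and pan-1 had 67.2 without replicate 1 and no thresholded peak without replicate 2. No paired analysis was possible because the samples form 1 group. The lists hold no read totals, so the depth behind a missing peak is unknown.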
